A study of Mus musculus with 38 samples.

Results

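The splicing factor and hnRNP genes are the genes whose platform symbol begins with Srsf, Hnrnp, Sf3a, Sf3b, Snrp, Prpf or U2af and whose probe was detected in the striatum of at least 8 of the arrayed mice, detection being a p-value under 0.01 against the array's background. All 49 genes with such a symbol met this rule, out of 8444 named genes and 9455 features tested. Only 11458 of the 25697 probes on the array were named in the annotation used. The count of 49 therefore does not show what share of such genes on the array was detected. They comprise 14 hnRNP proteins, 9 SR proteins, 9 Sm or U snRNP proteins, 8 PRPF proteins, 7 SF3A or SF3B subunits and 2 U2AF genes. Each gene is represented by its brightest probe. Hnrnpu, Srsf11, Sf3b1 and U2af1, which belong to the same families, were not among the named probes and were not analysed here.

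Total RNA from the striatum of MF1 mice aged 152 days was hybridised to Illumina bead arrays. The groups were XXY males (9 animals, sample codes beginning XXYSry), XX males (8 animals, XXSry), XX females (9 animals, codes beginning XX without Sry) and XY males (11 animals with a signal of 12 labelled, XYSry). Sry, the testis-determining gene, is thus named in the codes of all 3 male groups, the XY males included. The labels do not say where Sry lies in each genome, and they give no further allele. The series asks how sex chromosome complement and gonadal sex relate to gene expression, with XXY as the karyotype of Klinefelter syndrome in men. Xist, the RNA of the inactive X, was detected in 9 of 9 XXY males, 8 of 8 XX males, 9 of 9 XX females and 0 of 11 XY males. All 8 measured markers of striatal projection neurons were detected in every animal. The sample codes also carry a letter, a or b, and some carry both; their meaning is not given in the labels. All XX females carried letter b and all XX males carried letter a. The XXY males held 2 a, 6 both and 1 b, and the XY males with a signal held 4 a, 3 both and 4 b. Of the XXY and XY males, those with only an a belonged to labelled batch 1 and those with only a b to labelled batch 2. The number of detected probes ranged from 10089 to 12392 per animal. XXY male 5 and XX female 7 stood apart from the other animals in the deviations described below. Striatum is a mixed tissue, so fewer cells of one type and less RNA per cell cannot be told apart in any value that follows.

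Splicing removes introns from the primary transcript and is carried out by the spliceosome, which assembles from U snRNPs built around a ring of Sm proteins. U1 recognises the start of the intron, U2AF its end and U2, with the SF3A and SF3B complexes, the branch point, after which PRPF proteins help to join and activate the U4, U5 and U6 particles. SR proteins mostly promote the use of nearby splice sites and hnRNP proteins often oppose it, and neurons use the balance between them for much of their alternative splicing.

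Across animals the genes moved along a shared axis, described after the group comparisons, and 4 genes at its ends show its sides. Their promoters, the 250 bases before the annotated start, are printed here because Srsf4 and Snrpa lay at one end and Snrpg and Snrpd2 at the other. Sequences are RefSeq's for mouse build GRCm38.p6, read from 5′ to 3′ on the gene's strand, and capitals mark matches on either strand to the GC box GGGCGG, the CCAAT box CCAAT, the ETS core CCGGAA and the TATA box TATAAA. No 2 matches shared a base in these windows.
Srsf4, chr4:131873387-131873636, plus strand: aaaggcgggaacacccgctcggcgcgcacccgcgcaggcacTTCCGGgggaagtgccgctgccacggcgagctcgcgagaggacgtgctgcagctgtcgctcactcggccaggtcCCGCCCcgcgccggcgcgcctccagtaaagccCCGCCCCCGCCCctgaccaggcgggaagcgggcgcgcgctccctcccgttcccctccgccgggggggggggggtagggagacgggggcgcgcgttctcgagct
Snrpa, chr7:27196272-27196521, minus strand: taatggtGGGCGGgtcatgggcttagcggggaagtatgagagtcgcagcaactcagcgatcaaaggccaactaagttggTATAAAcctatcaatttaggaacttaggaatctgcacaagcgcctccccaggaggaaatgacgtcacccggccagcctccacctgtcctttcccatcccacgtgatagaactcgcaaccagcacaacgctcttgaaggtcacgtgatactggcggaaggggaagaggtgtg
Snrpg, chr6:86371290-86371539, plus strand: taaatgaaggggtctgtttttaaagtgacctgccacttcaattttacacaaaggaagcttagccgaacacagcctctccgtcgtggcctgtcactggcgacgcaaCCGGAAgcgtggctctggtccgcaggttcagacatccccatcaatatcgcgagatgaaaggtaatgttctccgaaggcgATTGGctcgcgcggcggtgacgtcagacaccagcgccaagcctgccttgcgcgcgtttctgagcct
Snrpd2, chr7:19149588-19149837, plus strand: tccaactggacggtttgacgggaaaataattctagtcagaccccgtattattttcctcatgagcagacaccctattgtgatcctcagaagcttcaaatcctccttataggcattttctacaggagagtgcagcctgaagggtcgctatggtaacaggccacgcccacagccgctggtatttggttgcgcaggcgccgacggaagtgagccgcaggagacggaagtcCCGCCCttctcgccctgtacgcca

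A promoter was matched for 42 of the 49 genes. The GC box was found in 26 of these 42 promoters (61.9%), against 32.9% of all 27025 promoters of the same length. The ETS core was found in 17 (40.5%), against 12.2% of all promoters. The CCAAT box was found in 22 (52.4%), against 34.5%, and the TATA box in 5 (11.9%), against 13.0%. Among the genes at the Srsf4 end of the axis, 9 of 17 promoters held the ETS core and 9 the GC box. At the Snrpg end 3 of 7 held each of them. The set of all promoters was not limited to genes detected in the striatum, as the 49 genes were, so the shares come from unlike sets. These are counts of letters in a window and no test was made of them.

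XXY males were compared with XY males first, a contrast in the number of X chromosomes between males. No splicing factor or hnRNP gene changed in XXY males: 0 of 49 passed an adjusted p of 0.05 in limma, against 0.0635% of all features (6 of 9455). None had an unadjusted p under 0.05 either, against 123 features in all, and limma with array weights also called 0. Of the 49 differences 34 were positive, with a median log2 difference of 0.023, against 49.5% positive and a median of -0.0011 over all features. The 95% interval lay within 1.5-fold in either direction for 43 genes and within 2-fold for all 49. Among the hnRNP proteins 12 of 14 differences were positive and among the SR proteins 3 of 9.

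The most positive difference was that of Hnrnph2, the only X-linked gene of the 49, whose protein binds runs of G near splice sites. Its signal had a lowest, median and highest log2 value of 4.78, 6.00 and 6.74 in XXY males, against 4.85, 5.51 and 6.59 in XY males. It was detected in 7 of 9 XXY males, 5 of 8 XX males, 3 of 9 XX females and 6 of 11 XY males. The groups overlapped over nearly their whole ranges, and the log2 difference of 0.38 ± 0.28 (SE, n = 9 and 11) had an adjusted p of 1 in limma. Hnrnph3, a relative that also binds G-rich RNA, differed by 0.37 ± 0.20 on the log2 scale. Sf3b4, an SF3B subunit that contacts the RNA near the branch point, differed by 0.33 ± 0.23. All 3 probes were dim and undetected in some animals, where the normalization offset can shrink a difference. How far it did so here was not tested. The most negative differences were those of Srsf12, an SR-related protein that opposes other SR proteins in human extracts (-0.17 ± 0.11), Sf3b6, the SF3B subunit at the branch point adenosine (-0.15 ± 0.29), and Srsf6, an SR protein that acts on exonic enhancers (-0.14 ± 0.10).

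The 95% interval was wide for some genes of well-known role and narrow for others in XXY males. On the log2 scale it was -0.61 to 0.74 for Hnrnpa2b1, an exon-silencing hnRNP that also carries mRNA into neurites, and -0.44 to 0.40 for Srsf4, an SR protein with a long arginine-serine tail. Snrpn encodes the Sm protein of neurons and is imprinted. Its lowest, median and highest log2 signals were 13.34, 14.24 and 14.48 in XXY males, against 13.95, 14.07 and 14.48 in XY males, with a 95% interval of the difference of -0.19 to 0.22. For Hnrnpc, which binds U-rich RNA, the values were 12.94, 13.20 and 13.52 in XXY males, against 12.98, 13.19 and 13.43 in XY males, with an interval of -0.13 to 0.16. For Srsf2, an SR protein that binds exonic enhancers, they were 11.20, 11.85 and 12.18 in XXY males, against 11.36, 11.87 and 12.13 in XY males, with an interval of -0.16 to 0.14. The ranges of the groups overlapped in all 3 genes, and the lowest XXY male in Snrpn, XXY male 5, lay below every XY male. U2af2, the U2AF subunit that binds the polypyrimidine tract, differed by 0.17 ± 0.12 and Srsf1, the SR protein that stabilises U1 at the start of introns, by -0.053 ± 0.11. Within batch 1 alone 16 of 21 named genes had the sign of the fit over all animals and within batch 2 alone 15, and 0 passed in either.

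**Figure D1:**
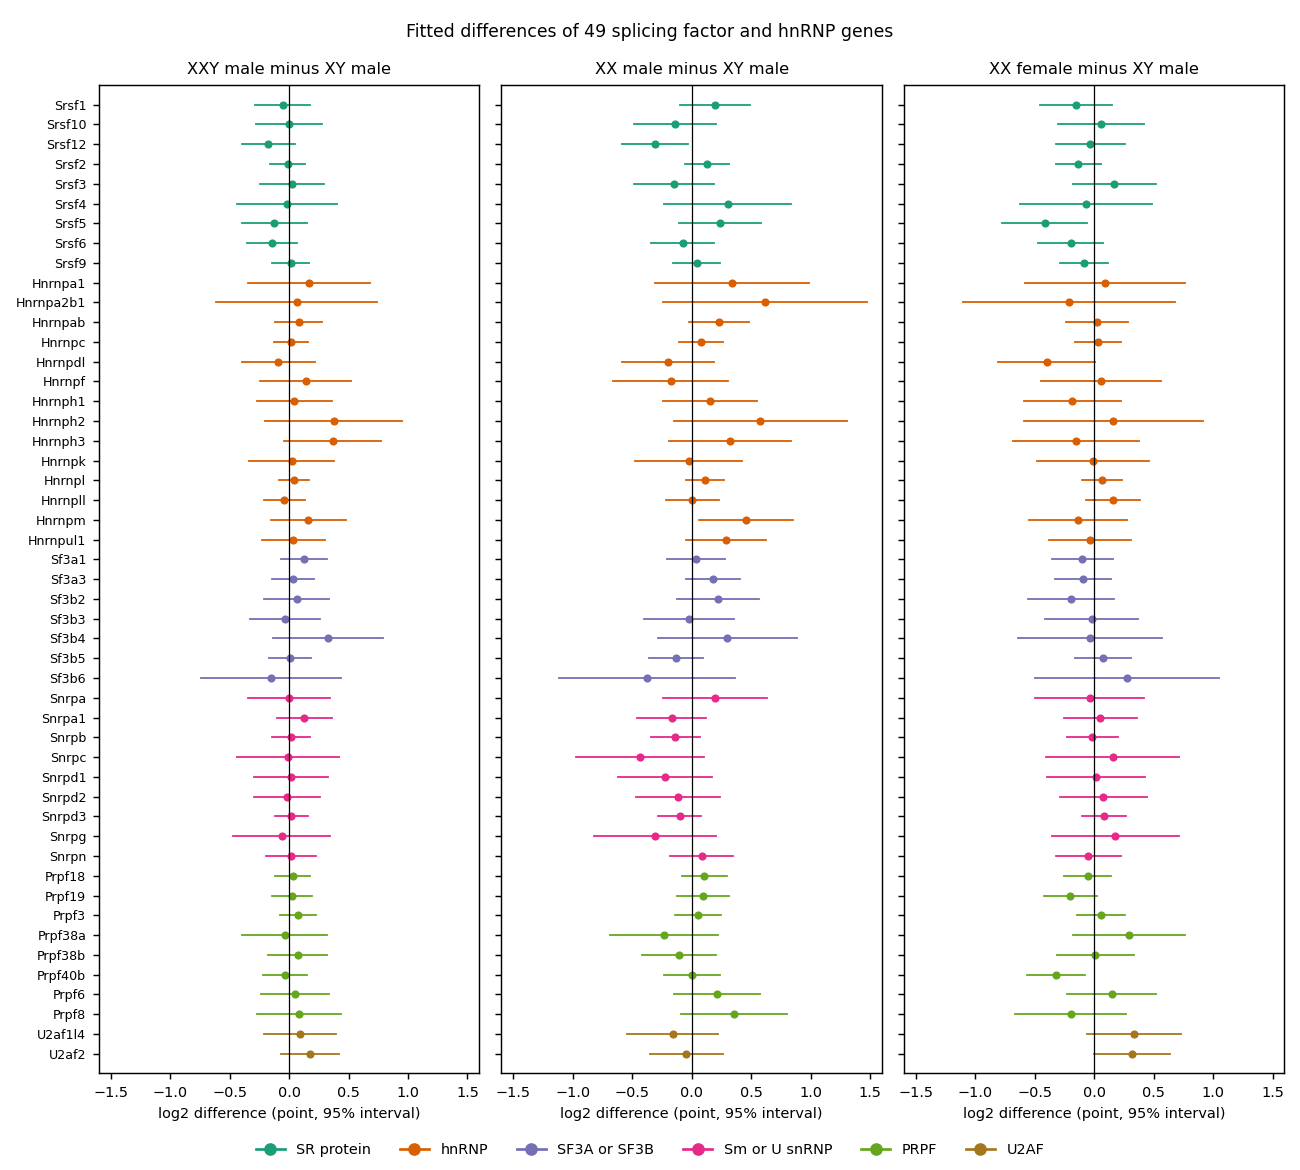
Fitted log2 differences against XY males (horizontal axis, point with 95% interval) of the 49 genes (rows, coloured by family) for XXY males, XX males and XX females. No gene passed an adjusted p of 0.05 in any panel, and the intervals of the XXY male panel are the narrowest, with 43 of 49 inside 1.5-fold.

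XX males were compared with XY males, animals that share male sex and differ in the sex chromosomes. Again 0 of the 49 genes changed at an adjusted p of 0.05 in limma, against 0.0529% of all features (5 of 9455). Hnrnpm and Srsf12 had an unadjusted p under 0.05, against 615 features in all. The differences ran from -0.44 to 0.62 on the log2 scale with a median of 0.042, against 0.0062 over all features, and 28 of 49 were positive. Of the hnRNP proteins 11 of 14 had a positive difference, while 7 of the 9 Sm or U snRNP proteins had a negative one. The intervals were wider than for XXY males, with 31 genes inside 1.5-fold and 46 inside 2-fold.

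Hnrnpa2b1 had the most positive difference. Its lowest, median and highest log2 signals were 9.82, 10.95 and 11.52 in XX males, against 9.11, 10.75 and 11.27 in XY males. The ranges overlapped, and the fitted difference was 0.62 ± 0.42 (SE, n = 8 and 11, adjusted p = 0.636 in limma). For Hnrnph2 the values were 4.91, 6.47 and 7.45 in XX males, against 4.85, 5.51 and 6.59 in XY males. Its difference was 0.58 ± 0.36 (adjusted p = 0.636 in limma), with overlapping ranges. Hnrnpm, an hnRNP that binds GU-rich RNA, had 10.80, 11.10 and 11.75 in XX males, against 10.22, 11.13 and 11.68 in XY males. Its unadjusted medians were close, and the fitted difference of 0.46 ± 0.20 is taken after the letter and batch terms.

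At the negative end stood genes of the snRNP core. Snrpc, the U1 protein that helps to pair U1 with the start of the intron, had 6.93, 7.33 and 7.72 in XX males, against 6.87, 7.40 and 8.43 in XY males. The XX male range lay inside that of the XY males, and the difference was -0.44 ± 0.26 (adjusted p = 0.636 in limma). Sf3b6 differed by -0.37 ± 0.37, and Snrpg, a protein of the Sm ring, by -0.31 ± 0.25. Srsf12 had 6.41, 6.76 and 7.08 in XX males, against 6.64, 7.13 and 7.73 in XY males, a difference of -0.31 ± 0.14 with partly overlapping ranges.

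This comparison was the one in which the calls depended most on how the arrays were weighted. With limma's array weights 15 of the 49 genes passed an adjusted p of 0.05 (30.6%), against 26.2% of all features (2477 of 9455), so the share of these genes was near that of the array as a whole. The 10 higher in XX males were Hnrnpa2b1, Hnrnpab, Hnrnph1, Hnrnph2, Hnrnpm, Prpf8, Sf3b2, Snrpa, Srsf1 and Srsf4, and the 5 lower were Prpf38a, Sf3b6, Snrpc, Snrpd1 and Snrpg. Under the weights Hnrnpa2b1 differed by 1.06 ± 0.30 and Snrpc by -0.70 ± 0.19. The lowest weights were those of XXY male 5 (0.147), XX female 7 (0.185), XY male 2 (0.256) and XXY male 4 (0.331). Among the letter a animals alone no named gene passed (smallest adjusted p = 0.794 in limma), and 20 of 21 named genes had the sign of the fit over all animals. Hnrnpa2b1 differed by 0.58 ± 0.53 there, by 0.58 ± 0.56 within batch 1 and by 0.41 ± 0.66 within batch 2. Hnrnph2 changed sign between the batches, with 0.77 ± 0.48 within batch 1 and -0.23 ± 0.58 within batch 2. In batch 2 only the XX males carried letter a alone, which limits the comparison within that batch.

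XX females were compared with XY males, a contrast in both sex chromosomes and sex. Of the 49 genes 0 changed in limma, against 0.0529% of all features (5 of 9455), and 2 had an unadjusted p under 0.05, against 498 features in all. Limma with array weights also called 0. Differences ran from -0.41 to 0.34, with 23 of 49 positive and a median of -0.017, against -0.0092 over all features. Srsf5, an SR protein known as a growth-responsive gene in rat liver, had 10.89, 11.18 and 11.59 in XX females, against 10.58, 11.47 and 12.00 in XY males. The XX female range lay inside that of the XY males, and the difference was -0.41 ± 0.18 (SE, n = 9 and 11, adjusted p = 0.89 in limma). Prpf40b, related to a U1 protein of yeast, had 8.26, 8.43 and 8.75 in XX females, against 8.51, 8.72 and 8.98 in XY males, ranges that overlapped in part. It differed by -0.32 ± 0.12 (adjusted p = 0.89 in limma), by -0.34 ± 0.15 among letter b animals and by -0.13 ± 0.30 and -0.37 ± 0.15 within batches 1 and 2. Of 21 named genes 9 had the sign of the fit over all animals within batch 1 and 18 within batch 2, and 0 passed in either. No male of batch 1 carried letter b alone, which limits the comparison within that batch. Hnrnpdl, an hnRNP close in sequence to Hnrnpd, differed by -0.40 ± 0.20.

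Both U2AF genes had positive differences in XX females in the fit over all animals, with opposite signs in the labelled batches. U2af1l4, a relative of the small U2AF subunit that reads the end of the intron, had 8.03, 8.59 and 8.99 in XX females, against 7.88, 8.35 and 9.03 in XY males. U2af2 had 6.92, 7.28 and 7.77 in XX females, against 6.77, 7.18 and 7.52 in XY males. The groups overlapped for both genes, and the differences of 0.34 ± 0.20 and 0.32 ± 0.16 had an adjusted p of 0.89 in limma. Prpf38a, a protein needed to activate the assembled spliceosome, followed with 0.30 ± 0.23. In batch 1 every XX female carried letter b and no male carried b alone, so the letter term there reached past the letters of the males. Within batch 1 the differences were negative, -0.42 ± 0.48 for U2af1l4, -0.41 ± 0.36 for U2af2 and -0.50 ± 0.64 for Prpf38a. Within batch 2 they were positive, 0.55 ± 0.20, 0.50 ± 0.19 and 0.54 ± 0.20 in the same order, and none passed in either batch.

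The 3 comparisons between groups other than XY males gave the same count. For XXY males against XX males 0 of 49 genes changed in limma, against 0.0212% of all features. An unadjusted p under 0.05 was found for 1 gene, against 590 features in all. Array weights called 1, against 1.61% of all features: Snrpa1, a U2 protein, at 0.54 ± 0.14. The most negative differences were Hnrnpa2b1 at -0.55 ± 0.43, Srsf5 at -0.36 ± 0.17 and Srsf4 at -0.32 ± 0.26. The most positive were Snrpc at 0.43 ± 0.27, Hnrnpf, which binds runs of G, at 0.31 ± 0.24 and Snrpa1 at 0.30 ± 0.15. For XXY males against XX females 0 changed in limma, against 0.0423% of all features, and 0 under array weights. In this comparison 1 gene (Prpf40b, 0.29) had an unadjusted p under 0.05, against 387 features in all. There Hnrnph3 had the most positive difference, 0.52 ± 0.27, ahead of Sf3b4 at 0.36 ± 0.31 and Hnrnpdl at 0.31 ± 0.21. Sf3b6 had the most negative, -0.43 ± 0.40, then Prpf38a at -0.33 ± 0.24 and U2af1l4 at -0.24 ± 0.20.

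For XX males against XX females 0 changed in limma, against 0.0106% of all features. Only 1 had an unadjusted p under 0.05, against 720 features in all. Letters a and b separate these groups completely, and the intervals were the widest, inside 2-fold for 35 genes. The most positive differences were Hnrnpa2b1 at 0.83 ± 0.64, Srsf5 at 0.65 ± 0.26 and Hnrnpm at 0.59 ± 0.30. The most negative were Sf3b6 at -0.65 ± 0.55, Snrpc at -0.59 ± 0.40 and Prpf38a at -0.53 ± 0.34. Without the letter term 12 of the 49 genes (24.5%) were called, against 26.9% of all features, and in that count letter and group cannot be told apart. With the letter term and array weights 10 (20.4%) were called, against 20.8% of all features. Both shares were near that of the array as a whole. The 6 comparisons share animals and are not independent of one another.

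The letter in the sample code was called for 5 of the 49 genes (10.2%) in the same fit, against 13.2% of all features (1244 of 9455), so the share of these genes was not above that of the array as a whole. All 5 were higher in letter b than in letter a animals, against 7% of all features, and 0 were lower, against 6.16% of all features. The 5 were Srsf2, Srsf10, Srsf5, Hnrnph3 and Snrpd3. Srsf10, an SR protein that represses splicing when it loses its phosphates, had 7.14, 7.79 and 8.10 in the 14 letter b animals, 6.98, 7.48 and 7.72 in the 9 with both letters and 6.44, 6.78 and 7.56 in the 14 letter a animals. The b and a animals overlapped, with a fitted difference of 0.76 ± 0.22 (adjusted p = 0.0181 in limma). Snrpd3, a protein of the Sm ring, had 11.35, 11.51 and 11.76 in letter b animals, 11.26, 11.39 and 11.49 in those with both and 10.75, 10.98 and 11.21 in letter a animals. Its b and a ranges did not overlap, and the fitted difference was 0.42 (adjusted p = 0.0108 in limma). It turned to -0.0301 with the authors' log2 values and to -0.0038 in batch 2 alone.

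Srsf2 had 11.62, 12.03 and 12.18 in letter b animals, 11.44, 11.87 and 11.96 in those with both and 11.20, 11.58 and 11.74 in letter a animals, with a difference of 0.62 ± 0.12 (adjusted p = 0.000531 in limma), which turned to -0.0132 as the mean over its probes. Only 1 letter b animal lay inside the range of the letter a animals. Hnrnph3 differed by 1.03 ± 0.32 (adjusted p = 0.0282 in limma) and Srsf5 by 0.65 ± 0.22 (adjusted p = 0.0386 in limma), both with overlapping ranges. The count of 5 rests on few animals. It was 3 without XXY male 1, XY male 6 or XY male 9, and 7 without XY male 2, XXY male 4 or XXY male 5. It was 15 without the batch term, beside 3098 of all features. Within either batch, where few animals bear on it, it was 0, beside 15 of all features in batch 1 and 0 in batch 2. The labelled batch itself moved 0 of the 49 genes in limma, against 0% of all features, with 0 of the 49 and 156 features at an unadjusted p under 0.05.

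**Figure D2:**
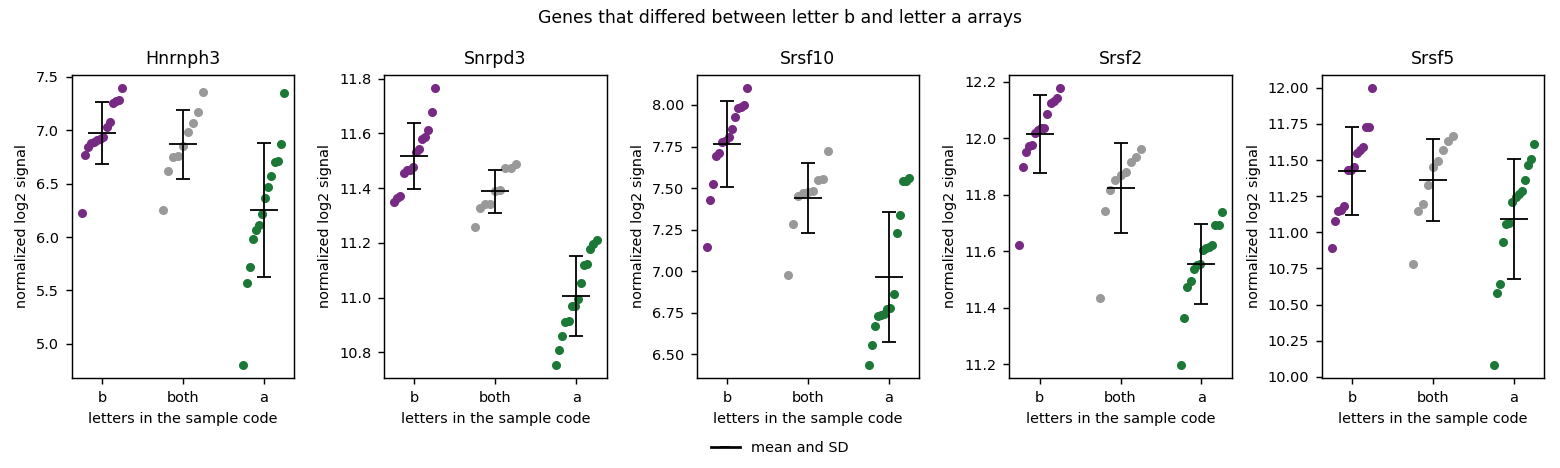
Normalized log2 signal (vertical axis) of the 5 genes called for the letter term, by the letters in the sample code (14 animals with b, 9 with both, 14 with a), with mean and SD in black. In each gene the mean of the animals with both letters lies between the other means, and their values overlap those of the b animals. In Snrpd3 the b and a animals do not overlap.

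Animals of the same group differed along a pattern shared by many genes. After group, batch and letter were taken out, the first principal component of the 9406 other features held 45.2% of the remaining variance, and the animals' scores on it, with the sign set so that Srsf4 is positive, are called the animal axis here. Correlations with it are descriptions across 37 animals that share arrays and normalization. Of the 49 genes 19 (38.8%) had r of 0.7 or more, against 20.4% of all features, and 10 (20.4%) had r of -0.7 or less, against 19.2%. The other 20 lay between. The threshold of 0.7 was chosen with these data known, and the genes nearest to it were Prpf6 (0.713) and Hnrnpk (0.689) on one side and Snrpb (-0.705) and Prpf3 (-0.527) on the other.

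Of the 6 families, those of SR, PRPF, SF3A or SF3B, and Sm or U snRNP proteins had members at both ends. Of the 14 hnRNP proteins 7 had r of 0.7 or more, 0 had -0.7 or less and 7 lay between. Of the 9 SR proteins 2 were at the positive end (Srsf4, r = 0.978, and Srsf1, 0.893), 1 at the negative end (Srsf3, -0.866) and 6 between. Of the 8 PRPF proteins 4 were at the positive end, among them Prpf8, the protein at the catalytic core of the spliceosome (0.850), and 1 at the negative end, Prpf38a (-0.894). Of the 7 SF3A or SF3B subunits 4 were at the positive end, among them Sf3b2 (0.911) and Sf3b3 (0.910), and 2 at the negative end, Sf3b6 (-0.942) and Sf3b5 (-0.709). No test was made between families.

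Of the 9 Sm or U snRNP proteins 5 were at the negative end, 2 at the positive end and 2 between. Snrpg (-0.957), Snrpd2 (-0.944), Snrpd1 (-0.934) and Snrpb (-0.705), proteins of the Sm ring, and Snrpc (-0.928) were negative. Snrpn, the Sm protein of neurons, was at the positive end (0.804) with Snrpa, the U1 protein that binds a U1 RNA loop (0.936). The ring protein Snrpd3 (-0.513) and the U2 protein Snrpa1 (-0.473) lay between. Among the hnRNP proteins the highest were Hnrnpa2b1 (0.932), Hnrnph1 (0.891) and Hnrnpab (0.806), and U2af1l4 had -0.734. Near 0 were U2af2 (0.023), Prpf38b (-0.068) and Srsf10 (0.147).

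Srsf4 spanned 8.26 to 10.31 in XXY males with a median of 10.04, 9.43 to 10.28 in XX males with a median of 10.04, 8.81 to 10.27 in XX females with a median of 10.00, and 9.05 to 10.33 in XY males with a median of 10.03. Snrpg spanned 10.73 to 12.52 in XXY males with a median of 11.23, 10.75 to 12.08 in XX males with a median of 11.26, 10.77 to 12.27 in XX females with a median of 11.35, and 10.76 to 12.07 in XY males with a median of 11.18. In both genes the 4 groups overlapped almost entirely and the spread lay between animals of the same group. The animals lowest in Srsf4, XXY male 5 and XX female 7, were the highest in Snrpg. Hnrnpa2b1 had the largest residual SD of the 49 genes, 0.775, with an SD of 1.09 in XXY males, 0.663 in XX males, 0.634 in XX females and 0.733 in XY males.

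**Figure D3:**
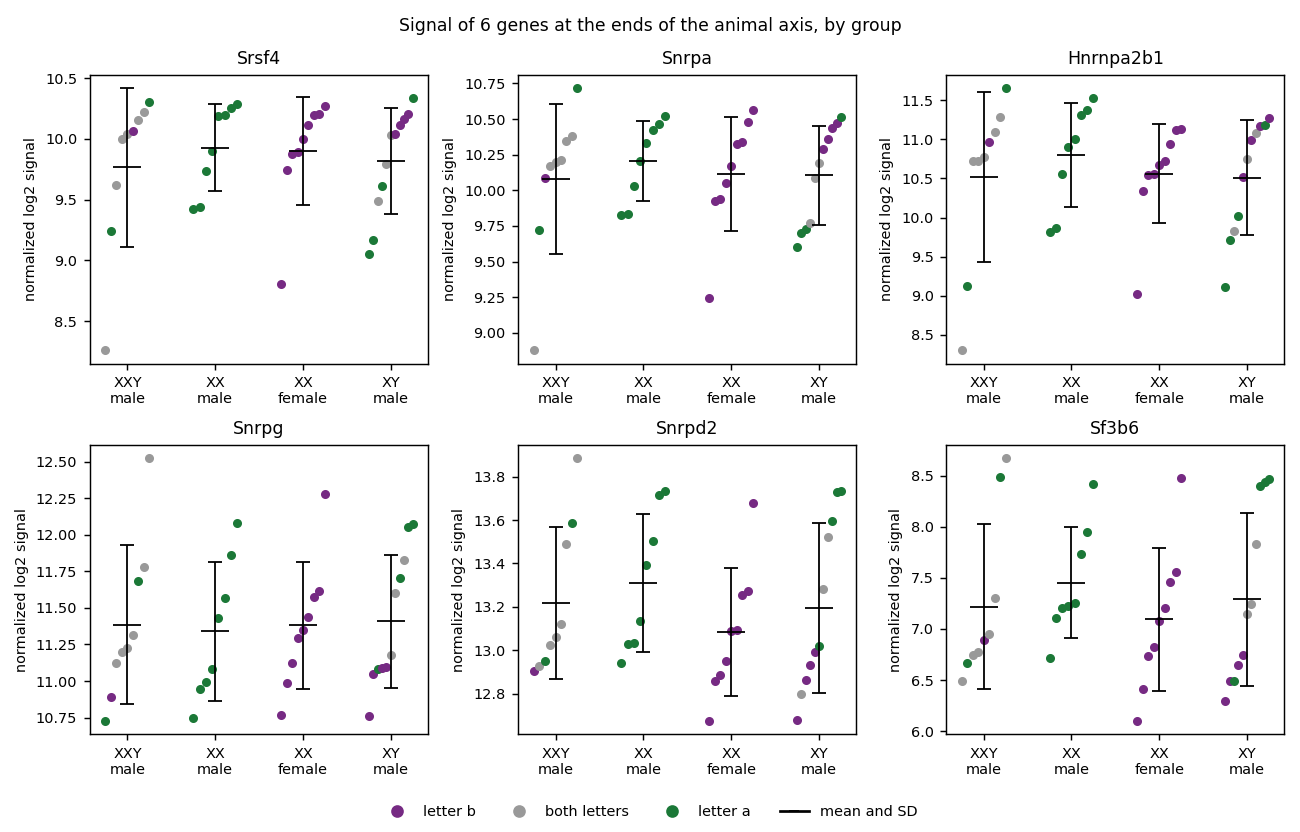
Normalized log2 signal (vertical axis) of 3 genes at the positive end of the animal axis (top) and 3 at the negative end (bottom), by group, coloured by the letters in the sample code, with mean and SD in black. The 4 groups overlap in every gene, and XXY male 5, the lowest point of the top row, is the highest of Snrpg and Snrpd2.

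The lowest scores on the axis were those of XXY male 5 (-68.5) and XX female 7 (-66.0), and the highest those of XXY male 4 (46.7) and XY male 2 (43.7). XXY male 5 also had the fewest detected probes, 10089, while XX female 7 had 11244, within the range of the other XX females. Whether RNA quality moves with the axis was not tested. XXY male 5 and XX female 7 were first left out of the correlations alone, with scores and deviations kept from the fit to all 37 animals. All 29 genes beyond 0.7 then kept their sign, 22 of them stayed beyond 0.7, and the smallest size of r among the 29 was 0.626. Srsf4 then had r = 0.967 and Snrpg r = -0.938. With the fit and the axis made anew without these 2 animals, the axis held 33.2% of the remaining variance, against 45.2%. In that fit 14 genes had r of 0.7 or more and 7 had -0.7 or less, and all 29 kept their sign. The 29 genes also had the same sign in the letter b, both-letter and letter a animals taken separately, where Srsf4 had r of 0.975, 0.993 and 0.987. The 29 were picked by their r over all 37 animals, so their signs in parts of the same animals are no independent support. For Srsf4 the rank correlation was 0.946 and for Snrpg -0.946. These 2 genes were picked as the ends of the axis from the same values, so no p-value is given for them. Hnrnpll, a regulator of exon skipping known from T cells, changed sign without the 2 animals, with an r of -0.375 over all 37 and of 0.047 without them.

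**Figure D4:**
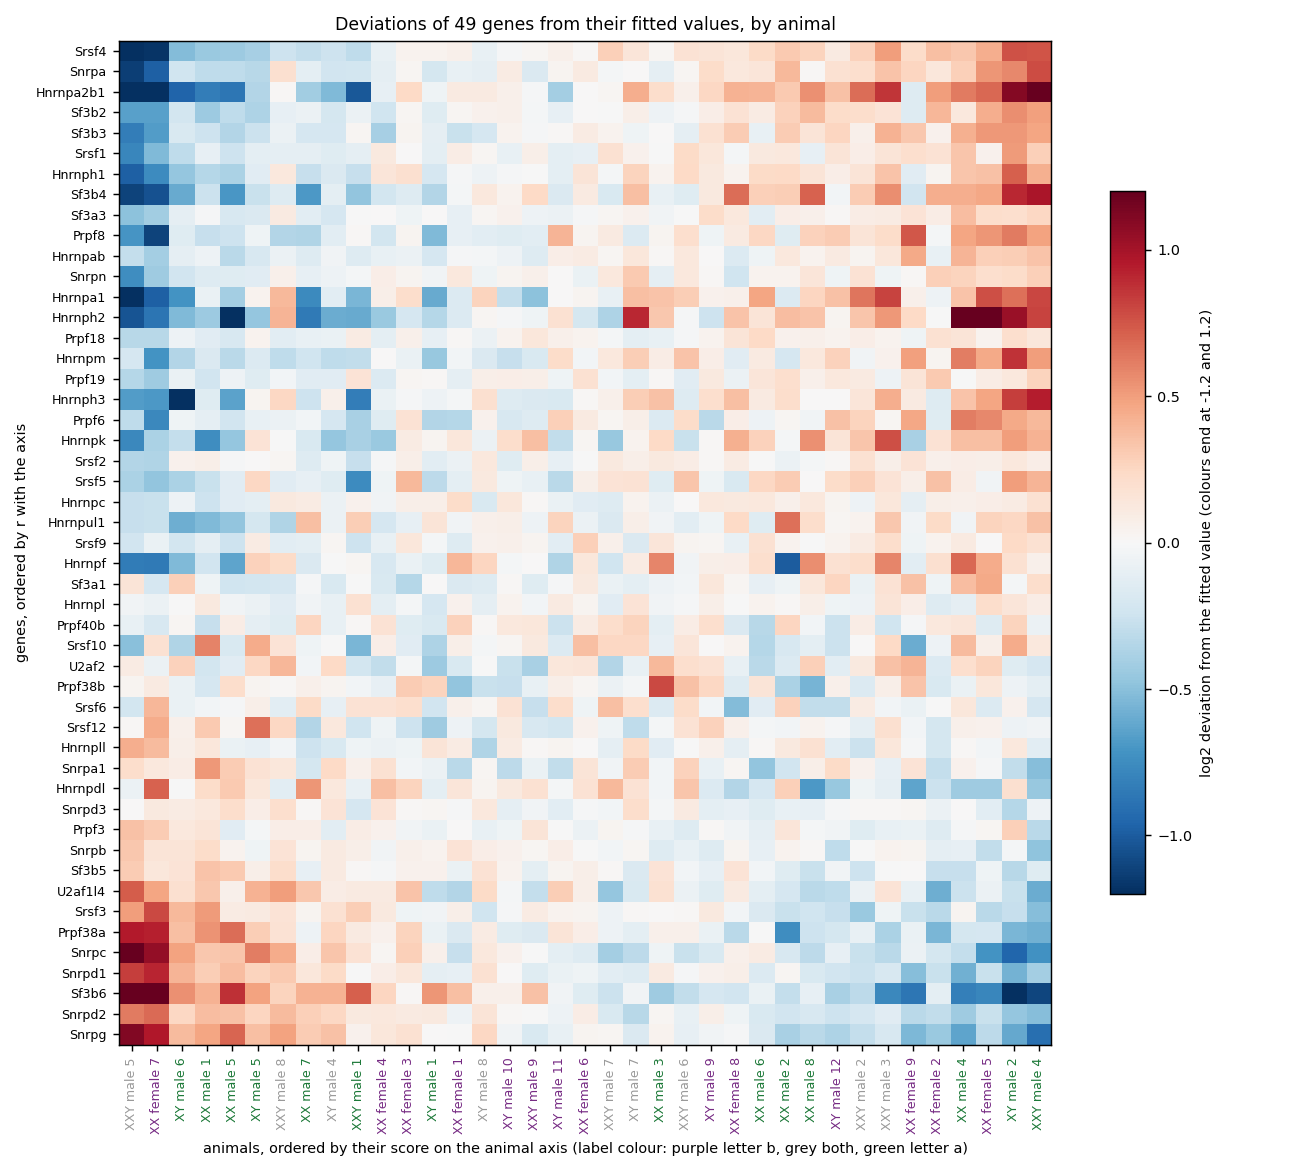
Log2 deviations from the fitted values (colour) of the 49 genes (rows, ordered by r with the animal axis) in 37 animals (columns, ordered by axis score). From left to right the genes at the top turn from blue to red and those at the bottom from red to blue, and the colours are deepest in XXY male 5 and XX female 7 at the left and in XY male 2 and XXY male 4 at the right.

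The fitted differences of XX males from XY males ran along the same sides. Of the 19 genes at the positive end 18 had a positive difference (median 0.22) and of the 10 at the negative end all 10 had a negative one (median -0.19). Over all features the medians were 0.27 and -0.24, so the pattern was that of the array as a whole. For XXY males against XY males the medians were 0.052 and -0.00061, and for XX females against XY males -0.070 and 0.16. None of these genes passed the test in any of the 3 comparisons. Among cell type markers, r with the axis was 0.7 or more for 5 of 8 of striatal projection neurons, 4 of 7 of astrocytes, 3 of 4 of endothelium, 1 of 8 of oligodendrocytes, 1 of 7 of microglia and 0 of 6, 0 of 7 and 0 of 3 of choroid plexus, of thalamus and septum, and of erythroid cells. It was -0.7 or less for 1 marker each of astrocytes, microglia and erythroid cells, whose median r was 0.841, 0.249 and -0.506. Their part in the result was not tested. The log2 of the summed linear signal of the striatal neuron markers ran from 14.7 to 15.9 in XXY males and 15.1 to 15.9 in XX males. In XX females it ran from 14.5 to 15.8 and in XY males from 14.8 to 15.9.

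Of the 49 genes 23 had more than 1 probe past the detection filter, with 33 probes beside those used, and the probes of a gene did not always move together. Of the 33 others 15 had r of 0.7 or more with the used probe across the animals' deviations and 3 had a negative r. The 5 probes of Hnrnph1 had r with the axis between 0.844 and 0.891, and the pairs of Snrpd1 (-0.934 and -0.942), Srsf3 (-0.866 and -0.854) and Srsf1 (0.893 and 0.894) nearly coincided. In Hnrnpk, a poly-C binding protein, the used probe ILMN_1245987 had r = 0.689 with the axis and ILMN_2784821 had r = -0.607. In Hnrnpc the values were 0.626 for ILMN_1235470 and -0.495 for ILMN_2511051. In Srsf2 the used probe ILMN_2636335 had 0.665 and ILMN_2806029 had -0.165. The letter difference of Srsf2, 0.62 for the used probe, was -0.33 ± 0.17 for ILMN_2806029 and -0.33 ± 0.27 for ILMN_1235653, and that of Srsf10 was 0.76 for ILMN_3019002 and -0.32 ± 0.19 for ILMN_2698282. The labels and annotation used here do not give which transcript forms each probe reads, and the calls for these genes are those of 1 probe.

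**Figure D5:**
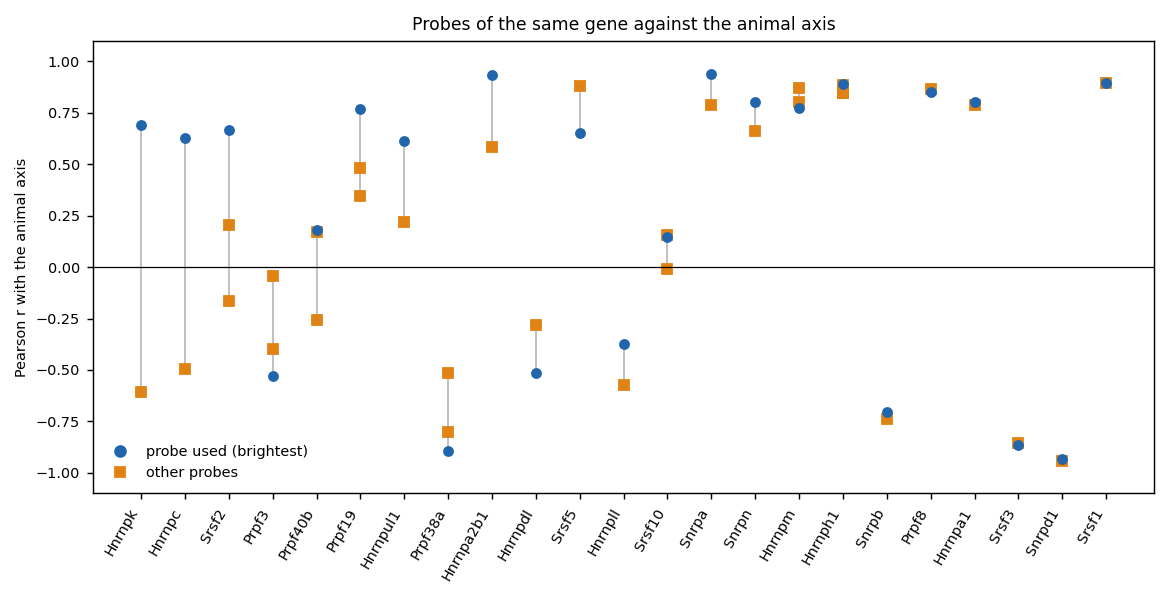
Pearson r with the animal axis (vertical axis) for each probe of the 23 genes with several probes (horizontal axis, ordered by the spread of r), with the used probe in blue and the others in orange. Hnrnpk, Hnrnpc, Srsf2, Prpf40b and Srsf10 have probes on both sides of 0, while those of Snrpd1 and Srsf1 coincide.

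The rest of the splicing pathway was read from 4 lists. In the 6 group comparisons 0 of 23 tested neuronal and tissue splicing regulators, 0 of 15 SR protein kinases and nuclear speckle proteins, 0 of 42 other spliceosome and exon junction proteins and 0 of 26 hnRNP-like and FET family proteins changed in limma. At an unadjusted p under 0.05 the lists held 0 to 4 genes per comparison. The largest count was 4 of the 42 other spliceosome proteins, in XX males against XX females, where 7.62% of all features had such a p. Among differences of XX males from XY males, Luc7l3, related to a U1 protein of yeast, had 0.60 ± 0.31, Taf15, of the FET family, 0.53 ± 0.22, Elavl3, a neuronal RNA-binding protein, 0.49 ± 0.34 and Bud31, a spliceosome protein, -0.55 ± 0.33, all with an adjusted p of 0.636 to 0.64 in limma.

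For the letter term 16 of the 106 tested genes of these lists were called (15.1%), near the 13.2% of all features given above. Letter b animals were higher in Khdrbs3, Acin1, Clk2, Son, Snrnp35, Cherp, Pcbp2, Tardbp and Fubp3 and lower in Khdrbs2, Rbfox2, Rbm8a, Lsm6, Dhx15, Txnl4a and Txnl4b. Pcbp2, a poly-C binding protein, differed by 1.08 ± 0.17 (adjusted p = 7.08e-05 in limma), and Txnl4b, related to a U5 protein, by -0.78 ± 0.12 (adjusted p = 5.4e-05 in limma). On the animal axis the neuronal regulators Rbfox3 (r = 0.969) and Rbfox1 (0.956) stood at the positive end, and the small ring proteins Lsm3 (-0.957) and Lsm7 (-0.942) at the negative end, as did Snrpg and Snrpd2. Of the neuronal regulators 8 of 23 had r of 0.7 or more and 1 had -0.7 or less. Of the other spliceosome proteins 8 of 42 had r of 0.7 or more and 12 had -0.7 or less.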

How the data were processed

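Per the file headers, the deposited table gives linear bead signal intensities without between-array normalization, and beside each a detection p-value, the beads' standard error and their number. The signal of XY male 3 was not analysed here. The authors also deposited log2 values for 12128 probes, with limma named in the submitters' processing notes. The sources used here give neither their scale nor their centring. The columns of XX males had Spearman correlations of 0.0624 to 0.0729 with their own arrays, against 0.987 to 1 in the other groups, so this table served only as an alternative without XX males. Columns left unused for want of a sample numbered 0.

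Background was removed with normexp, the control levels coming from the detection p-values. Arrays were then quantile-normalized and log2 values taken after adding 16 (neqc in limma 3.58.1 under R 4.3.3). A probe was kept if its detection p-value was under 0.01 in at least 8 animals, which left 12339 of 25697. The number of arrays and the signal over background limit the precision, and probe levels were not compared between genes.

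One limma fit (lmFit, eBayes) over the 4 groups held labelled batch and the share of letter b arrays (0, 0.5 or 1). P-values were two-sided and Benjamini-Hochberg adjusted over 9455 features. The script was tested on simulated data. The labels call the animals biological replicates, and the fit did not pair animals across groups by their numbers. Named genes were the members called in any term, the 3 most positive and 3 most negative of each comparison, the 2 brightest of each class, X-linked members, textbook members and those whose probes differed most; genes at the ends of the animal axis were added after their values were seen. Members and lists were chosen with earlier results of these data known. The alternatives were other model terms, normalizations, filters, probe rules, array weights, subsets, replicate blocks and each animal left out.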

Additional observations from a re-analysis of the deposited data

Results flagged for a closer look

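In 20 of 147 combinations of gene and group tested, the highest or lowest animal lay farther from the others than Dixon's 95% limit allows. Chance alone gives about 1 in 20 in independent tests, but these tests share animals. The share over all features is not given here, so the count shows nothing particular to these genes. The groups of 8 and 9 animals were tested, and the XY males, with 11, were not. Most of these values came from XX female 7 and XXY male 5, the animals at the low end of the animal axis.

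XX female 7 was the lowest of the XX females, in log2 signal, for Srsf1 (10.9), Srsf2 (11.6), Srsf4 (8.81), Hnrnpa2b1 (9.03), Hnrnph1 (9.84) and Snrpa (9.24). It was the highest for Srsf12 (7.64) and for Prpf3, a protein of the tri-snRNP (9.31). XXY male 5 was the lowest of the XXY males for Prpf19, a ubiquitin ligase of the spliceosome (11.9), the U2 protein Sf3a3 (9.95), Sf3b2 (10.7), Sf3b3 (8.49) and Snrpn (13.3). It was the highest for Prpf38a (10.9), Snrpc (9.02) and Snrpd1 (12.8).

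The other 4 values came from 4 further animals. XXY male 6 was the highest of its group for Prpf38b (7.23), XXY male 4 the lowest for Snrpa1 (9.17), XX female 2 the lowest for Sf3b5 (11.7) and XX female 9 the lowest for Srsf10 (7.14). What sets these animals apart was not tested.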

How the results depend on the processing

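The count of 0 changed genes held in all 6 group comparisons under every leave-one-out fit, the quantile normalization without normexp, both detection filters, the mean over probes, the fit without the batch term and each batch alone. Array weights gave 15 for XX males against XY males, 1 for XXY males against XX males and 10 for XX males against XX females. Without the letter term the count was 1 for XX females against XY males, beside 207 of all features. It was 12 for XX males against XX females, beside 2544 of all features. Those last 2 groups fitted alone, where the letter term has no estimate, gave 11, beside 2478 of all features. The letter count of 5, beside 1244 of all features, became 15 without the batch term, beside 3098 of all features. With array weights it was 18, beside 3378 of all features. It was 0 with the authors' log2 values (29 animals) and in batch 2 alone, beside 0 of all features in both. In batch 1 alone it was 0, beside 15 of all features. Leaving out animals gave 3 to 7. The letter difference reversed for Snrpd3 to -0.0301 with the authors' log2 values and -0.0038 in batch 2 alone, and for Srsf2 to -0.0132 as the mean over its probes. The causes were not tested. Of 538 alternative values of 36 named differences, 24 changed sign and 11 passed the threshold.

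Replicate numbers in the sample titles are shared between groups. Deviations of same-numbered animals had a median r of -0.0151 (48 pairs, -0.643 to 0.617), against -0.00989 for animals with other numbers. A median near 0 does not show that no animals were paired. The numbers in the sample codes differ from those in the titles for some animals, and pairing by them was not tested. A replicate block left the 6 group counts at 0. It gave 4 letter calls as a random block and 1 as a fixed block, the latter beside 223 of all features. On the axis, the counts at 0.7 or more and -0.7 or less were 20 and 9 of 48 genes with the authors' values, 14 and 7 without XXY male 5 and XX female 7, and 19 and 7 without animals with both letters. Letter a arrays hold no XX female and letter b arrays no XX male, so those comparisons could not be made within a letter. Hnrnph2, Hnrnph3, Hnrnpf, Hnrnpul1 and Sf3b4 were not detected in every animal, which limits their differences.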

Other observations

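The genomic span of genes was set beside the animal axis. Over all named genes its median was 36930 bases for the 1771 with r of 0.7 or more and 10640 bases for the 1652 with r of -0.7 or less, with 22845.5 bases for those between. Among the splicing factor and hnRNP genes the medians were 14329 bases for the 19 at the positive end and 8899.5 bases for the 10 at the negative end. The 20 between had a median of 15825.5 bases, above that of either end. No test was made of these values.

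Of the 33 further probes of genes with several probes, 11 had a letter difference opposite in sign to that of the used probe. Of these 33, 7 passed an adjusted p of 0.05 for the letter term in limma fitted to all kept probes. The share of all kept probes that passed is not given here, so the 7 cannot be set beside it. Among the 7 was a second probe of Snrpa, ILMN_1247582, at 1.05 ± 0.32, against 0.13 ± 0.28 for the used probe. For Hnrnpm the further probes ILMN_1239021 (0.68 ± 0.22) and ILMN_2921095 (1.04 ± 0.26) passed, while the used probe had 0.65 ± 0.25 and an adjusted p of 0.0779 in limma.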
